A study of Mus musculus with 6 samples.

Results

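The cholesterol synthesis enzymes described here are 7 genes, Hmgcs1, Idi1, Fdps, Sqle, Lss, Cyp51 and Dhcr7, out of 18193 genes with a probe set on the arrays. They were chosen by name, and every probe set that the platform annotation gives to one of these symbols was read on all 6 arrays. That gave 17 probe sets: 5 for Hmgcs1, 3 each for Lss and Cyp51, 2 each for Idi1 and Fdps, and 1 each for Sqle and Dhcr7. The 6 arrays measured gonads of mice of the inbred strain C57BL/6: fetal ovary and fetal testis at 15.5 days postcoitum, neonatal ovary and neonatal testis on day 1 after birth, and adult ovary and adult testis at 10 weeks. No treatment or mutation is given for any group, and the series was made to screen for genes of chromosome segregation in the first meiotic division. Each group is 1 array of RNA from whole gonads, and the sources used here do not say how many animals it came from. Differences between arrays therefore cannot be set against a spread between replicates, and no test was made.

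Cells build cholesterol from acetyl-CoA. Mevalonate made from HMG-CoA is turned into isoprene units, these are joined to farnesyl diphosphate and then to squalene, and squalene is closed to lanosterol, which is trimmed and reduced to cholesterol. The genes of the route are switched on together by SREBP2, a membrane-bound transcription factor that is released when sterols in the endoplasmic reticulum run low. In gonads the cells that make steroid hormones, which are Leydig cells in the testis and theca, granulosa and luteal cells in the ovary, use cholesterol as the starting material and also take it up from lipoproteins. Germ cells use the route too. In rodents the lanosterol demethylase Cyp51 is known to be abundant in late male germ cells, and its product belongs to the meiosis-activating sterols.

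Promoter sequences were read for 5 of the 7 genes from RefSeq on build GRCm38.p6, each running from 250 bases before the start of the gene to 50 after it. They are shown because the route is known for its common control, and 4 are printed, 5′ to 3′ on the strand of the gene. Capitals mark, on either strand, the letters TCACNCCAC (a form of the sterol regulatory element that SREBP binds), CCAAT (the site of NF-Y, a known partner of SREBP) and TGACG (the core of the cAMP-responsive element). The Hmgcs1 promoter lies at chr13:119690101-119690400 on the plus strand, that of Idi1 at chr13:8885356-8885655 on the plus strand, that of Cyp51 at chr5:4104648-4104947 on the minus strand, and that of the last of 3 annotated starts of Dhcr7 at chr7:143829964-143830263 on the plus strand.
Hmgcs1: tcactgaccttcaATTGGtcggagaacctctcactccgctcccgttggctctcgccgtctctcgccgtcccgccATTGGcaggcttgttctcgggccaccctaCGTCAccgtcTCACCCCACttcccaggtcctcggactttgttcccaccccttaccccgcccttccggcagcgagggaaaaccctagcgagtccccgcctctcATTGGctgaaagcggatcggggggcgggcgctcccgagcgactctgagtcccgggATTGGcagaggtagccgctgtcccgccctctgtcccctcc
Idi1: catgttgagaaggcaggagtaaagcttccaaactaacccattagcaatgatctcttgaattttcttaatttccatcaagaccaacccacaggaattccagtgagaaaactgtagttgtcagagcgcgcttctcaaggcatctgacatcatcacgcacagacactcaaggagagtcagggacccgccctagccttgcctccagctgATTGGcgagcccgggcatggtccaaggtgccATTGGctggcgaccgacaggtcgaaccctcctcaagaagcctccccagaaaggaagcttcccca
Cyp51: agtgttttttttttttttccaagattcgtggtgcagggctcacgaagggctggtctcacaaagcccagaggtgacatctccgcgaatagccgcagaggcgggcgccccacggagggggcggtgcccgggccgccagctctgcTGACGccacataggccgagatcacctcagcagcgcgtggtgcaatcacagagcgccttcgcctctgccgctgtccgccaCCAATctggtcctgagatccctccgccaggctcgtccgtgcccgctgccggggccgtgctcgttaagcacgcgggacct
Dhcr7: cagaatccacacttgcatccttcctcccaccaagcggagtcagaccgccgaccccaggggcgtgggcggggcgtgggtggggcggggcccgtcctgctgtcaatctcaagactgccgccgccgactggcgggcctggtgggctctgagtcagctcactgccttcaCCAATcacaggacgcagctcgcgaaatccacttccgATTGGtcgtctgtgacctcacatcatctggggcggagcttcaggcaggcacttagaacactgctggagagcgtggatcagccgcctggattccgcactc
TCACNCCAC was found in the Hmgcs1 promoter only of the 5 genes, and in 1.24% of all 32817 promoters of this length. The CCAAT letters were found in all 5 genes, 4 times in Hmgcs1, 2 times in Idi1 and at the last start of Dhcr7, and once in Cyp51 and in Lss, against 37.4% of all promoters. TGACG was found in Hmgcs1 and Cyp51, against 20.8% of all promoters. The GC box GGGCGG, not capitalised, was found in all 5 genes and in 35.6% of all promoters. None of these motifs overlapped another in the printed lines, and a match is a description of letters and not of binding.

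Signals below are linear array intensities after each array was scaled to the same 2% trimmed mean, with a floor at 75.3, the median of all scaled signals. Signals of different probe sets cannot be set against each other, so each gene is followed across arrays by its brightest probe set. By that probe set all 7 enzymes were above the floor on every array. The fetal testis had the highest signal of the 6 arrays for all 7 of them. The lowest was the neonatal ovary for Idi1, Fdps and Cyp51, the adult ovary for Sqle and Lss, and the adult testis for Hmgcs1 and Dhcr7.

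The arrays were first checked with cell markers. The cleavage enzyme Cyp11a1, which turns cholesterol into pregnenolone and so starts all steroid synthesis, had signals of 5071 in fetal testis, 3025 in neonatal testis, 11368 in adult ovary and 612 in adult testis, and was at the floor in fetal and neonatal ovary. Fetal testis, neonatal testis and adult ovary are called the steroid-making gonads here for that reason, although the adult testis also makes testosterone and had 2600 for Cyp17a1, the enzyme that leads to androgens. The summed signal of 12 spermatid markers was 446 in fetal ovary, 394 in fetal testis, 662 in neonatal ovary, 535 in neonatal testis and 390 in adult ovary, against 101899 in adult testis. In the adult testis none of the 12 was at the floor, and on the other arrays 8 to 11 were, including Prm1, Prm2, Tnp1 and Tnp2. The 7 measured Leydig markers summed to 11233 in fetal ovary, 34210 in fetal testis, 12156 in neonatal ovary, 31452 in neonatal testis and 30738 in adult ovary, against 5553 in adult testis, so this sum was above the adult testis on all 5 other arrays. Most single markers went the other way in the fetal and neonatal ovary. In each, 1 of 7 was 4-fold above adult testis and 3 were 4-fold below. The median log2 ratios were -1.77 in fetal ovary and -1.73 in neonatal ovary. Cyp11a1, Cyp17a1 and Hsd17b3 were at the floor in both, while Dlk1 was at the floor in adult testis. In whole gonads, fewer cells of a type and less RNA per cell cannot be told apart. The 3′ over 5′ ratio of the Gapdh control probe sets, a sign of RNA quality, was 1.36 in fetal testis, 1.43 in neonatal testis and 1.32 in adult ovary, against 2.36 in adult testis, and that of Actb was 3.14 in fetal testis and 2.91 in both neonatal testis and adult ovary, against 1.81 in adult testis. The part of these cell types and of RNA quality in the ratios below was not tested.

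Hmgcs1, the cytosolic synthase that makes HMG-CoA at the head of the route, had signals of 4070 in fetal ovary, 6826 in fetal testis, 4740 in neonatal ovary, 5267 in neonatal testis and 5282 in adult ovary, against 1777 in adult testis. All 5 other gonads lay above the adult testis, with the fetal testis highest. The ratio to adult testis was 3.84 in fetal testis, 2.96 in neonatal testis and 2.97 in adult ovary. Of its other 4 probe sets, 3 were bright enough to follow and gave the same direction, with ratios of 4.71, 4.51 and 3.61 in fetal testis and 3.75, 3.13 and 2.60 in adult ovary. The fifth probe set was above the floor in fetal testis alone, at 107.

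Idi1, the isomerase that balances both forms of the isoprene unit, had signals of 673 in fetal ovary, 1613 in fetal testis, 383 in neonatal ovary, 739 in neonatal testis and 840 in adult ovary, against 956 in adult testis. Only the fetal testis stood above the adult testis. Its ratio of 1.69 turned to a log2 ratio of -0.54 when the arrays were scaled to 9 hybridization controls (spiked RNAs of known amount) instead of to the trimmed mean. Its second probe set gave ratios of 1.81 in fetal testis, 0.729 in neonatal testis and 0.892 in adult ovary, close to the 1.69, 0.773 and 0.879 of the first.

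Fdps, the synthase that makes farnesyl diphosphate, had signals of 995 in fetal ovary, 3706 in fetal testis, 571 in neonatal ovary, 1896 in neonatal testis and 2346 in adult ovary, against 925 in adult testis. The 3 steroid-making gonads were above the other 3 arrays, and the fetal and neonatal ovary lay near or under the adult testis. The ratio to adult testis was 4.01 in fetal testis, 2.05 in neonatal testis and 2.54 in adult ovary. Its other probe set was at the floor on all arrays.

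Sqle, the epoxidase that opens the sterol part of the route, had signals of 1331 in fetal ovary, 2260 in fetal testis, 1022 in neonatal ovary, 1154 in neonatal testis and 915 in adult ovary, against 2115 in adult testis. The fetal and adult testis were high and the other 4 arrays low. Lss, the cyclase that closes the squalene epoxide to lanosterol, had signals of 270 in fetal ovary, 737 in fetal testis, 273 in neonatal ovary, 327 in neonatal testis and 203 in adult ovary, against 238 in adult testis. Only the fetal testis stood apart, with a ratio of 3.09 to adult testis.

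Cyp51, the demethylase that takes lanosterol to the meiosis-activating sterol, had signals of 664 in fetal ovary, 1577 in fetal testis, 488 in neonatal ovary, 576 in neonatal testis and 604 in adult ovary, against 1288 in adult testis. As with Sqle, the fetal and adult testis were high and the other 4 arrays low. Neonatal testis was 2.24-fold and adult ovary 2.13-fold lower than adult testis. Dhcr7, the reductase of the last step to cholesterol, had signals of 399 in fetal ovary, 2237 in fetal testis, 611 in neonatal ovary, 987 in neonatal testis and 1091 in adult ovary, against 366 in adult testis. Its fetal testis signal was above all others by 2.05-fold or more, and its fetal ovary signal was near that of the adult testis.

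**Figure D1:**
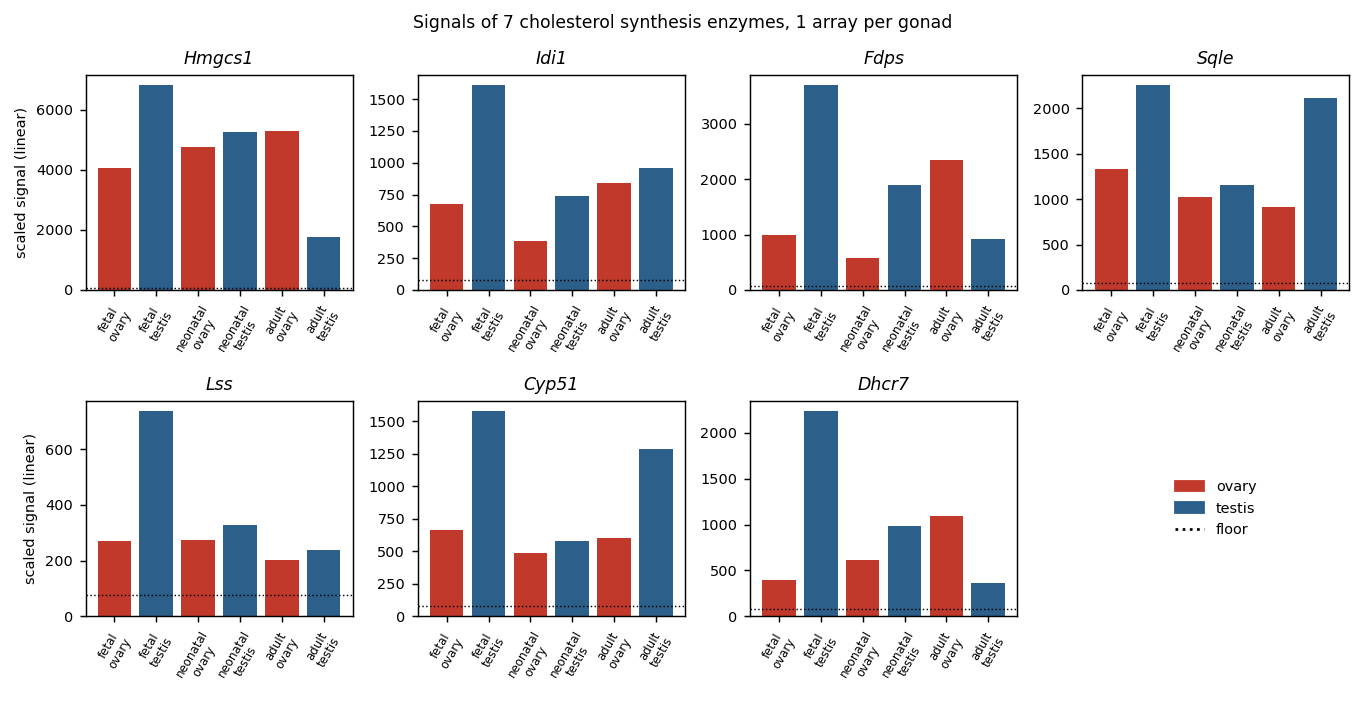
Scaled signals (vertical axes, linear intensity, each with its own range) of the 7 enzymes, 1 bar for the 1 array of each gonad in red for ovary and blue for testis, with the floor of 75.3 as a dotted line. The fetal testis is the highest bar for all 7, and the adult testis is the lowest for Hmgcs1 and Dhcr7 but second to the fetal testis for Idi1, Sqle and Cyp51.

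The first question was how the steroid-making gonads differ from the adult testis. In fetal testis over adult testis 2 of the 7 enzymes, Fdps and Dhcr7, were higher by 4-fold or more, and none was lower. Among all 14426 genes above the floor on at least 1 of these arrays, 13.9% were 4-fold higher and 13% 4-fold lower. At 2-fold, 4 of 7 were higher, Hmgcs1, Fdps, Lss and Dhcr7, against 34.4% of all genes, and none was lower, against 21.6%. Dhcr7 had the largest ratio of the enzymes, 6.12, and 92.9% of genes had a lower one, while the share was 43.0% for Sqle with its ratio of 1.07. The median log2 ratio of the enzymes was 1.63, and that of all genes 0.37. The robust SD of a log2 ratio between these arrays, taken from the 2 brightest probe sets of each gene, was 0.58, and the same 4 enzymes exceeded 2 times this SD. This SD covers disagreement between probe sets and no variation between animals. The direction of Hmgcs1, Fdps, Lss and Dhcr7 held under each of 4 other scalings, while Idi1, Sqle and Cyp51 were higher under the other scalings and turned lower with the hybridization controls. With these controls only Dhcr7, at a log2 ratio of 1.32, was still past 2-fold higher, while Hmgcs1 was at 0.65, Fdps at 0.71 and Lss at 0.34.

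In neonatal testis over adult testis none of the 7 reached 4-fold in either direction, where 13.2% of 14198 genes were that much higher and 13.7% that much lower. At 2-fold, Hmgcs1, Fdps and Dhcr7 were higher, against 32.5% of all genes, and Cyp51 was lower, against 22.6%. The median log2 ratio was 0.46 for the enzymes and 0.30 for all genes, with an SD of 0.56 for 1 ratio. Beyond 2 times the SD were Hmgcs1 and Dhcr7 on the higher side and Cyp51 on the lower. Hmgcs1 stayed higher and Idi1, Sqle and Cyp51 lower under the 4 other scalings, while Fdps, Lss and Dhcr7 turned with the hybridization controls, under which Hmgcs1 was at a log2 ratio of 0.07.

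In adult ovary over adult testis none reached 4-fold either, where 15.1% of 14349 genes were that much higher and 13.8% that much lower. At 2-fold, Hmgcs1 with a ratio of 2.97, Fdps with 2.54 and Dhcr7 with 2.98 were higher, against 34.2% of all genes. Sqle, 2.31-fold lower in adult ovary, and Cyp51 were past 2-fold on the other side, against 22.4%. The median log2 ratio was -0.19 for the enzymes and 0.35 for all genes, and the enzymes beyond 2 times the SD of 0.61 were Hmgcs1, Fdps and Dhcr7. The 9 measured granulosa markers summed to 38258 in adult ovary and 2643 in adult testis, and the 8 of corpus luteum and theca to 46934 in adult ovary and 4888 in adult testis, and their part in these ratios was not tested. All 7 directions held under the 4 other scalings, but with the hybridization controls the log2 ratios of Hmgcs1 (0.45), Fdps (0.22) and Dhcr7 (0.45) were under 2-fold. For Lss and Cyp51 they turned with other probe sets, as given below.

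The fetal and neonatal ovary, with Cyp11a1 at the floor, were set against the adult testis in the same way. In fetal ovary Hmgcs1 was 2.29-fold higher and no other enzyme was past 2-fold, against 34.4% of all genes higher and 22% lower. None was past 4-fold, against 14.3% of all genes higher and 13.2% lower. In neonatal ovary Hmgcs1 was 2.67-fold higher and Idi1, Sqle and Cyp51 were past 2-fold lower, with log2 ratios of -1.32, -1.05 and -1.40, against 33.2% of all genes higher and 21.4% lower. None was past 4-fold, against 14.4% of all genes higher and 13.1% lower. With the hybridization controls the log2 ratio of Hmgcs1 in fetal ovary turned to -0.19. Hmgcs1 was thus above the adult testis in all 5 other gonads in the main scaling, and the higher signals of Fdps by 2-fold or more were found in the 3 steroid-making gonads.

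**Figure D2:**
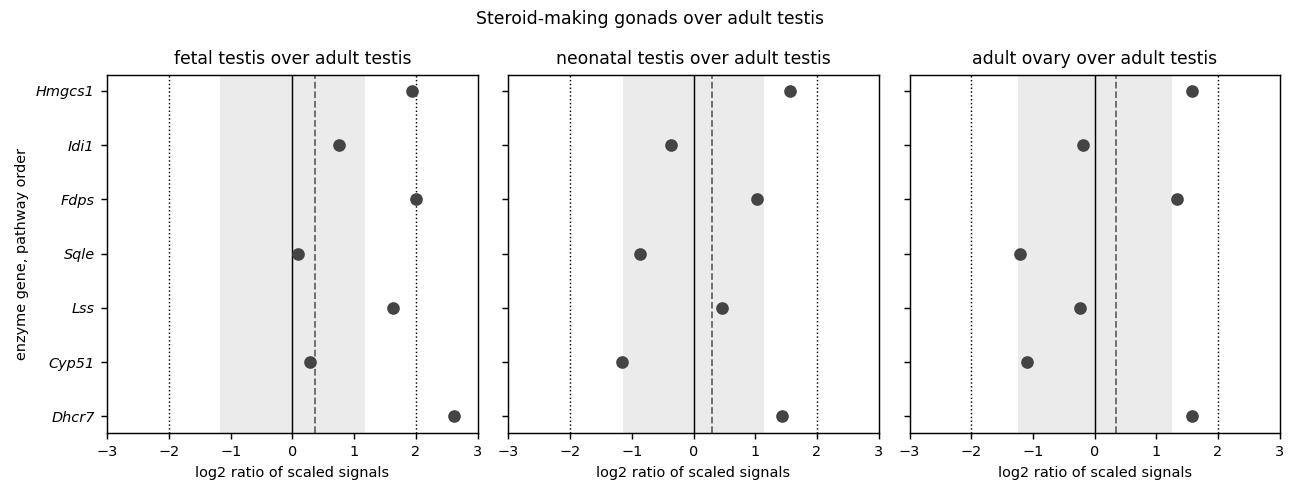
Log2 ratios of scaled signals (horizontal axis) of the 7 enzymes in fetal testis, neonatal testis and adult ovary over adult testis, 1 point per enzyme, with the median of all genes tested as a dashed line, 4-fold as dotted lines and 2 times the SD of a ratio as a grey band. Hmgcs1, Fdps, Lss and Dhcr7 lie to the right of the band in fetal testis, Hmgcs1, Fdps and Dhcr7 in adult ovary, and Cyp51 lies to its left in neonatal testis.

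The clearest contrast lay between the fetal gonads. All 7 enzymes were lower in fetal ovary than in fetal testis, Dhcr7 by 5.61-fold, Fdps by 3.72-fold, Lss by 2.72-fold, Idi1 by 2.40-fold, Cyp51 by 2.38-fold, Sqle by 1.70-fold and Hmgcs1 by 1.68-fold. Dhcr7 alone passed 4-fold, where 0.635% of 12595 genes did, and 5 of 7 passed 2-fold, where 2.59% of all genes did. No enzyme was higher, and 0.278% of all genes were 4-fold and 1.68% 2-fold higher in fetal ovary. The share of genes with a ratio lower than that of an enzyme was between 0.349% for Dhcr7 and 4.18% for Hmgcs1. The median log2 ratio was -1.26 for the enzymes and 0.02 for all genes. The SD of a ratio was 0.16 here, far smaller than against adult testis, and all 7 enzymes exceeded 2 times this value. All 7 directions held under the 4 other scalings and under every other setting tried. The 3′ over 5′ ratio was 1.45 in fetal ovary and 1.36 in fetal testis for Gapdh, and 3.78 in fetal ovary and 3.14 in fetal testis for Actb. The 7 measured Leydig markers summed to 11233 in fetal ovary and 34210 in fetal testis, with 5 of 7 past 4-fold lower in fetal ovary, and the 10 Sertoli markers summed to 8198 in fetal ovary and 22547 in fetal testis, with 4 of 10 past 4-fold lower. Markers of adrenal cortex, a neighbouring tissue that also makes steroids, summed to 328 in fetal ovary and 841 in fetal testis over 5 measured genes. Cyp11b1, an adrenal cortex enzyme of corticosterone synthesis, was at the floor in fetal ovary and at 329 in fetal testis, and Cyp11b2 was at the floor in both. The part of these cells and of RNA quality in the difference was not tested.

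After birth the ovary and testis were closer. In neonatal ovary over neonatal testis Fdps was 3.32-fold lower and was the only one of the 7 past 2-fold, where 5.27% of 13119 genes were that much lower and 8.04% higher. None passed 4-fold, against 1.94% of genes higher and 1.33% lower. Idi1 at 1.93-fold and Dhcr7 at 1.61-fold lower were also beyond 2 times the SD of 0.28, while Hmgcs1, Sqle, Lss and Cyp51 had log2 ratios between -0.26 and -0.15. In adult ovary over neonatal ovary Fdps was 4.11-fold higher, where 2.04% of 13261 genes were 4-fold higher and 2.59% 4-fold lower. Idi1 was 2.20-fold higher, and 8.05% of genes were 2-fold higher and 9.42% lower. Dhcr7 was 1.79-fold higher, and these 3 were beyond 2 times the SD of 0.32. Fdps was thus the enzyme with the widest change within the ovary and the widest gap between neonatal ovary and testis. The Gapdh 3′ over 5′ ratio was 1.32 in adult ovary, 3.12 in neonatal ovary and 1.43 in neonatal testis. Its part in these differences was not tested.

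Profiles over the 6 arrays fell into unlike shapes. Centred on its own mean, the average enzyme had log2 values of -0.33 in fetal ovary, 1.08 in fetal testis, -0.55 in neonatal ovary, 0.05 in neonatal testis, 0.00 in adult ovary and -0.25 in adult testis. The adult testis spread them most, with centred log2 values of -1.28 for Hmgcs1, -1.08 for Dhcr7, -0.63 for Fdps, -0.37 for Lss, 0.27 for Idi1, 0.62 for Sqle and 0.72 for Cyp51. As a description over 6 arrays, Sqle and Cyp51 were the most alike pair of the 21, with a Pearson r of 0.95. This r uses the brightest Cyp51 probe set, whose high adult testis value the next probe set does not share. Over the 5 arrays without the adult testis the pair had an r of 0.94. Next over 6 arrays were Idi1 and Cyp51 with 0.86 and Fdps and Dhcr7 with 0.85. Hmgcs1 and Sqle were the least alike, with -0.34. Without the adult testis the lowest r of the 21 pairs was 0.52 and the median 0.75, against -0.34 and 0.58 with it. The points share the arrays and their scaling.

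Ordered by signal, few neighbouring arrays of a gene differed beyond 2 times the SD of their ratio. For Sqle and Cyp51 no neighbours in the order did. Lss had 1 such step, between fetal testis and neonatal testis. Dhcr7 had 3, between fetal testis and adult ovary, between neonatal testis and neonatal ovary, and between neonatal ovary and fetal ovary. Fdps had 2, between fetal testis and adult ovary and between neonatal testis and fetal ovary. Idi1 had 1, between fetal ovary and neonatal ovary, and Hmgcs1 had 1, between fetal ovary and adult testis.

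The genes most like the average profile of the 7 enzymes were searched among 5841 genes that reached 4 times the floor and varied by 4-fold or more. The 5 with the highest Pearson r over the 6 arrays were Dnd1 with 0.95, Piwil4 with 0.95, Utf1 with 0.91, Pdyn with 0.90 and Rrp9 with 0.90. All 5 reached 4 times the floor in fetal testis alone. Piwil4 and Pdyn were at the floor on all arrays but fetal and neonatal testis. Utf1 was at the floor in neonatal ovary, and Rrp9 in neonatal ovary and adult testis. Dnd1, which encodes an RNA-binding protein needed for germ cell survival, had signals of 160 in fetal ovary, 1143 in fetal testis, 197 in neonatal ovary, 277 in neonatal testis, 261 in adult ovary and 146 in adult testis. Of the enzymes themselves Fdps followed the average most closely, with 0.90, and Hmgcs1 least, with 0.52. The average includes each enzyme itself, so these values cannot be set against those of the genes searched. Each r rests on 6 arrays and is led by the single high value in fetal testis.

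The probe sets of 2 enzymes disagreed on the adult testis. The brightest probe set of Cyp51 gave the values above, with the adult testis second highest. The next had signals of 413 in fetal ovary, 733 in fetal testis, 240 in neonatal ovary, 302 in neonatal testis and 251 in adult ovary, against 50.5 in adult testis, which is under the floor. By it Cyp51 was at least 9.73-fold higher in fetal testis, at least 4.01-fold in neonatal testis and at least 3.34-fold in adult ovary. On the 5 arrays other than adult testis the first probe set was 1.61 to 2.40 times as bright as the second, and on the adult testis at least 17.1 times. The remaining Cyp51 probe set was above the floor in fetal testis alone, at 80.8. The direction of Cyp51 against the adult testis in neonatal testis and adult ovary thus depends on the probe set, while both probe sets put the fetal testis highest.

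For Lss the brightest probe set is of the _s_at kind, which by design can read more than 1 transcript. The next had signals of 204 in fetal ovary, 563 in fetal testis, 158 in neonatal ovary, 202 in neonatal testis and 224 in adult ovary, against 59.6 in adult testis, again under the floor. By it Lss was at least 7.47-fold higher in fetal testis, at least 2.68-fold in neonatal testis and at least 2.97-fold in adult ovary, where the first probe set gave ratios of 3.09, 1.37 and 0.850. The lower signal of Lss in adult ovary therefore rests on 1 probe set. Hmgcs1 and Idi1 had no such disagreement, Fdps had 1 usable probe set, and Sqle and Dhcr7 had 1 probe set each.

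**Figure D3:**
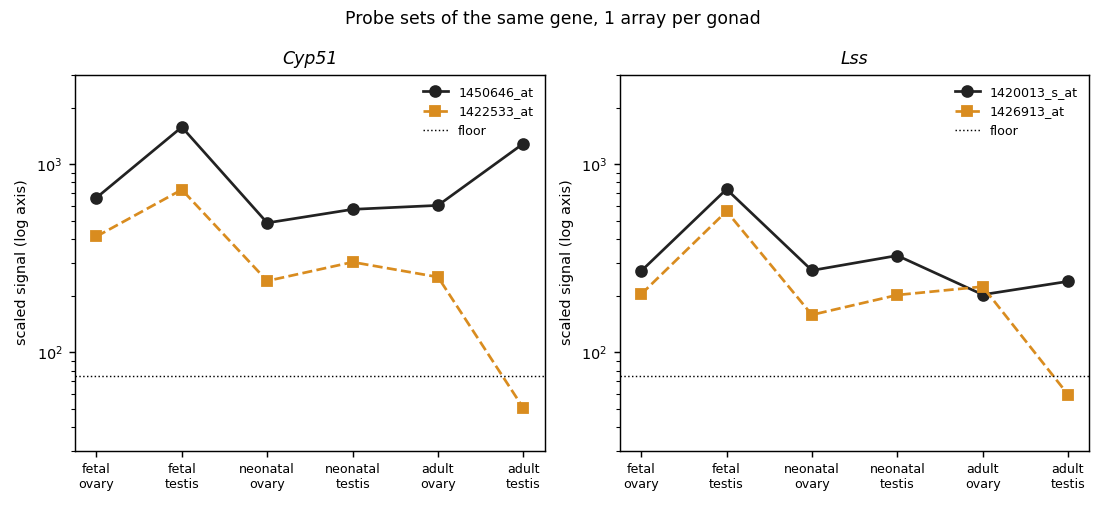
Scaled signals (linear intensity, log axis) of the 2 brightest probe sets of Cyp51 and of Lss on the 6 arrays, 1 line per probe set, with the floor of 75.3 as a dotted line. The lines part on the adult testis, where 1 probe set of Cyp51 lies at 50.5 and 1 of Lss at 59.6.

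The other enzymes of the route were read from a list of which 12 were measured. In fetal testis over adult testis 3 of 12 were 4-fold higher and none 4-fold lower, against 13.9% and 13% of all genes, with a median log2 ratio of 1.50. In neonatal testis over adult testis none was 4-fold higher and 1 lower, against 13.2% and 13.7% of all genes, with a median of 0.87. In adult ovary 3 were higher and none lower, against 15.1% and 13.8% of all genes, with a median of 1.19. With the hybridization controls the medians were 0.11 in fetal testis, -0.75 in neonatal testis and -0.17 in adult ovary, so those of neonatal testis and adult ovary change sign. In fetal ovary over fetal testis 6 of 12 were 2-fold lower and none 2-fold higher, against 2.59% and 1.68% of all genes, with a median of -1.01, near the -1.26 of the 7 enzymes. The methyl oxidase Msmo1, which acts later in the route than Cyp51, had signals of 877 in fetal ovary, 2241 in fetal testis, 471 in neonatal ovary, 864 in neonatal testis and 2366 in adult ovary, against 343 in adult testis. Hsd17b7, a reductase of the same demethylation complex, had signals of 414 in fetal testis, 187 in neonatal testis and 1143 in adult ovary, against 88.9 in adult testis, a ratio of 12.9 in adult ovary. Its next probe set differed less, with 159 in fetal testis, 124 in neonatal testis and 307 in adult ovary, against 100 in adult testis. The remaining Hsd17b7 probe sets were under the floor on all arrays. Sc5d, the desaturase that supplies the substrate of Dhcr7, was likewise high in adult ovary at 1625, with 308 in adult testis and 196 to 369 on the other arrays. Squalene synthase, Fdft1, ran the other way. Its signals were 861 in fetal ovary, 1810 in fetal testis, 1509 in neonatal ovary, 1286 in neonatal testis and 1494 in adult ovary, against 5921 in adult testis. A second Fdft1 probe set had 1394 in fetal testis, 795 in neonatal testis and 908 in adult ovary, against 4462 in adult testis. Fdft1 stands directly before Sqle in the route, and Fdft1, Sqle and Cyp51 were all lower in neonatal testis and adult ovary than in adult testis under each scaling, with the reservation on the probe sets of Cyp51 given above. Idi1, which stands earlier in the route, was also lower in both under each scaling.

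**Figure D4:**
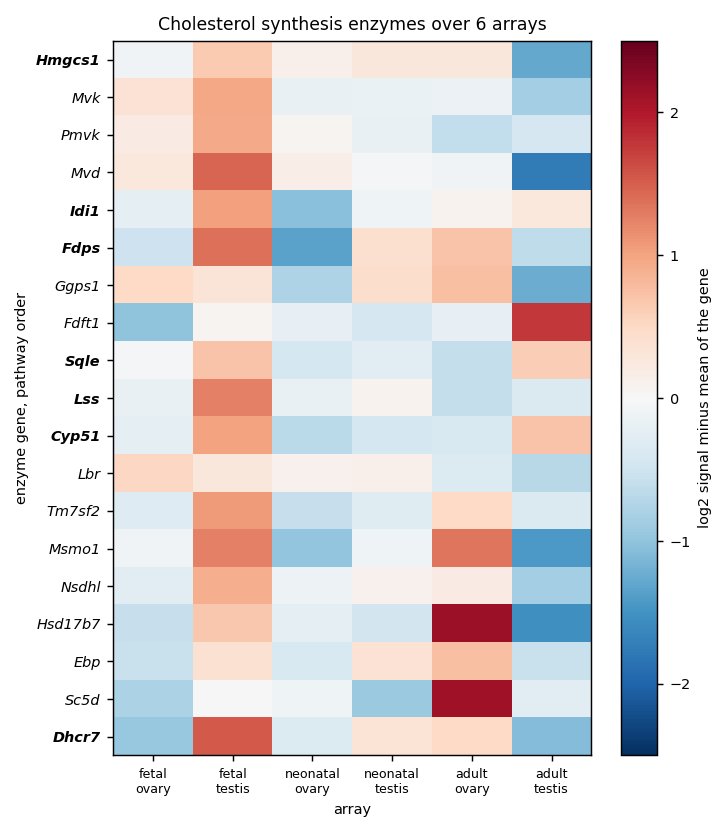
Heat map of the log2 signal minus the mean of the gene (colour scale, red above and blue below the mean) for the 7 enzymes, in bold, and the 12 other measured enzymes, in pathway order, on the 6 arrays (columns). The fetal testis column holds the highest value of all 7 enzymes, the adult testis that of Fdft1, and the adult ovary those of Msmo1, Hsd17b7 and Sc5d.

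Genes that control the route were read from a list of 12, of which 10 were measured. In fetal testis over adult testis 6 of 10 were 4-fold higher and none lower, in neonatal testis and in adult ovary 5 of 10 were 4-fold higher and none lower, and the median log2 ratios were 2.15 in fetal testis, 1.94 in neonatal testis and 2.04 in adult ovary. The shares of all genes 4-fold higher were 13.9% in fetal testis, 13.2% in neonatal testis and 15.1% in adult ovary. Those 4-fold lower were 13% in fetal testis, 13.7% in neonatal testis and 13.8% in adult ovary. With the hybridization controls the medians were 0.85 in fetal testis, 0.45 in neonatal testis and 0.92 in adult ovary. The counts were then 0 higher and 1 lower in fetal testis, 1 and 1 in neonatal testis, and 2 and 0 in adult ovary. Shares of all genes are given for the main scaling only. The ovaries with Cyp11a1 at the floor also lay above the adult testis. In fetal ovary 3 of 10 were 4-fold higher and none lower, against 14.3% and 13.2% of all genes. In neonatal ovary 4 of 10 were higher and none lower, against 14.4% and 13.1%. The medians were 1.79 in fetal ovary and 1.64 in neonatal ovary, and 0.41 and 0.75 with the hybridization controls. Scap carries SREBP out of the endoplasmic reticulum when sterols are low. It had signals of 1718 in fetal testis, 3544 in neonatal testis and 3485 in adult ovary, against 289 in adult testis. In fetal ovary it had 1150 and in neonatal ovary 1642. Insig1, a target of SREBP that holds Scap back, had 728 in fetal testis, 473 in neonatal testis and 630 in adult ovary, against 105 in adult testis. In fetal ovary Insig1 had 349 and in neonatal ovary 700. Insig2, which has the same role, was highest in adult testis at 1210, with 431 to 887 on the other arrays. Srebf2, which encodes SREBP2, differed less, with 490 in fetal testis, 312 in neonatal testis and 265 in adult ovary, against 253 in adult testis. In fetal ovary over fetal testis the median log2 ratio of the 9 above the floor was -0.23, beside -1.26 for the 7 enzymes. None was past 4-fold, against 0.278% of all genes higher and 0.635% lower. At 2-fold 1 of 9 was lower and none higher, against 2.59% and 1.68% of all genes.

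Genes of steroid synthesis, the users of cholesterol, were read from a list of 14, of which 10 were measured. In fetal ovary over fetal testis 6 of 9 were 4-fold lower and none higher, against 0.635% and 0.278% of all genes. Their median log2 ratio was -3.22. In adult ovary over adult testis 7 of 10 were 4-fold higher and 1 lower, against 15.1% and 13.8% of all genes. The median there was 3.09. With the hybridization controls 6 were lower in the fetal pair, and 4 were higher and 1 lower in the adult pair. The medians were then -2.91 in the fetal and 1.56 in the adult pair. Shares of all genes are given for the main scaling only. The list includes Cyp11a1, by which the steroid-making gonads were named. Star, which moves cholesterol into mitochondria, was at the floor in fetal ovary, and had signals of 1276 in fetal testis, 77.1 in neonatal ovary, 171 in neonatal testis and 2072 in adult ovary, against 256 in adult testis. Cyp11a1 and Star were highest in adult ovary, where Dhcr7 and Fdps were 2.05-fold and 1.58-fold under the fetal testis. Sqle, and Lss by its brightest probe set, had their lowest signals of the 6 arrays in adult ovary. For Sqle the step to the neonatal ovary, a log2 difference of 0.16, was within 2 times the SD, 0.64. By its next probe set Lss had 224 in adult ovary, below only the 563 in fetal testis, and was lowest in adult testis at 59.6. Scarb1, the receptor that takes up cholesterol from high-density lipoprotein, had 459 in fetal ovary, 2073 in fetal testis, 404 in neonatal ovary, 1624 in neonatal testis and 4543 in adult ovary, against 897 in adult testis. Over the 12 measured genes of uptake, storage and efflux, 2 were 4-fold higher and 2 lower in fetal testis, and 6 higher and 1 lower in adult ovary, than in adult testis, beside 13.9% and 13% of all genes in fetal testis and 15.1% and 13.8% in adult ovary. With the hybridization controls, for which no share of all genes is given, these counts were 0 and 2 in fetal testis and 3 and 2 in adult ovary. Lipe, the lipase that frees stored cholesterol esters and is also abundant in fat, had 194 in fetal testis, 189 in neonatal testis and 360 in adult ovary, against 2531 in adult testis. The 6 measured adipocyte markers summed to 1712 in adult testis, the lowest of the 6 arrays, and to between 2550 and 5933 on the others, although Adipoq among them was at 653 in adult testis and nowhere else above the floor. The part of fat cells in the Lipe values was not tested.

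**Figure D5:**
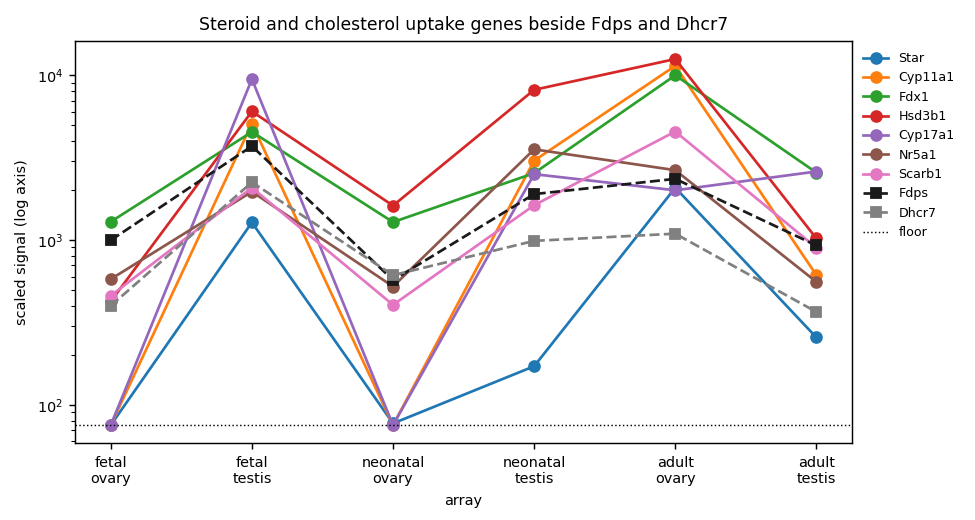
Scaled signals (linear intensity, log axis) of 7 genes of steroid synthesis and cholesterol uptake, in solid lines, and of Fdps and Dhcr7, in dashed lines, on the 6 arrays, with values under the floor of 75.3 drawn at it. Cyp11a1 and Star peak in adult ovary at 11368 and 2072 and are at the floor in fetal ovary, while Dhcr7 and Fdps peak in fetal testis at 2237 and 3706 and stay above the floor on every array.

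Outlets beside cholesterol were read last. Fdps feeds the isoprenoid branches that make ubiquinone, dolichol and the lipid anchors of proteins, and 10 genes of these branches were measured. In fetal testis 1 of 10 was 4-fold higher and none lower than in adult testis, against 13.9% and 13% of all genes. The median log2 ratio was 1.34 and turned to -0.17 with the hybridization controls. In fetal ovary over fetal testis none of the 10 differed by 2-fold, where 2.59% of all genes were lower and 1.68% higher. Their median was 0.06, where the 7 enzymes had -1.26. Among the 10 genes of fatty acid synthesis, which the sister factor SREBP1 controls, 3 were 4-fold higher in fetal testis than in adult testis and none lower, against 13.9% and 13% of all genes, with a median of 1.65. With the hybridization controls, for which no share of all genes is given, 1 was higher and 1 lower, with a median of 0.36. In fetal ovary over fetal testis 2 of these 10 were 2-fold lower and none higher, against 2.59% and 1.68% of all genes, with a median of -0.42. Fads2, a fatty acid desaturase, had signals of 785 in fetal ovary, 1700 in fetal testis, 518 in neonatal ovary, 1000 in neonatal testis, 823 in adult ovary and 425 in adult testis, with an r of 0.87 to the average profile of the 7 enzymes.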

How the data were processed

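Each of the 6 samples was measured on 1 Affymetrix array with biotin-labelled RNA made from total RNA, per the labels' protocols. The deposited table holds 1 linear intensity per probe set and array for 45101 probe sets, with a lowest value of 1. The submitters' processing notes name GCOS version 1, while background correction, summary and scaling were not given in the sources used here. Across arrays the deposited intensities had 2% trimmed means between 256 and 353, and were multiplied by factors between 0.913 and 1.26 to a common one. Values under the median of all scaled signals, 75.3, were raised to it, so a ratio to an array at this floor is a lower bound. Gene names came from the platform annotation, which gave 34945 probe sets 1 symbol, and no probe set joined an enzyme with another gene. Each gene was read by its brightest probe set. Genes above the floor on at least 1 of the 2 arrays of a comparison were called at a ratio of 4, with 2 given beside it. No test was made in the 8 comparisons, because each group has 1 array. The small number of arrays limits the precision. The enzymes, the lists of pathway genes and cell markers, and the comparisons were chosen with earlier results of these data known. Genes named are the 7 enzymes, members of those lists, and the 5 genes with the highest correlation to the average enzyme profile. Alternatives were quantile normalization, signals as deposited, the same median, 9 hybridization controls, a floor at the 25th or at the 75th percentile, 16 added in place of a floor, the mean over a gene's probe sets, no probe sets of the _x_at and _s_at kinds, and a call at 2-fold. Reading each gene by its second brightest probe set was added after seeing the data. Genes with no second probe set above the floor on any array, among them Fdps, Sqle and Dhcr7, kept their brightest. The steps were tested on simulated data. Python 3.11.15 with numpy 2.4.6, pandas 2.3.3 and matplotlib 3.10.9 was used, and promoters were matched as letters on both strands.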

Additional observations from a re-analysis of the deposited data

Results flagged for a closer look

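Outlying samples could not be looked for, since each group has 1 array. Among 71 measured genes of the pathway lists, 18 differed by 2-fold or more between ovary and testis in opposite directions at 2 ages, all of them lower in the ovary before or at birth and higher in the adult ovary. That is 25.4% of these genes, beside 3.55% of 15282 genes with any array above the floor. With the scaling to hybridization controls 10 of the 18 still met the rule, and Fdps and Dhcr7 were not among them, since their adult log2 ratios were 0.22 and 0.45. The share of all genes that met the rule is given for the main scaling only. The difference between ages was not tested for any of them. Fdps had log2 ratios of ovary over testis of -1.90 in the fetal, -1.73 in the neonatal and 1.34 in the adult pair. Dhcr7 had -2.49 in the fetal and 1.58 in the adult pair. By their brightest probe sets none of the other 5 enzymes changed direction in this way. By its second probe set Lss did, with -1.47 in the fetal pair and at least 1.57 in the adult pair.

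Of the other cholesterol synthesis enzymes, the log2 ratio in the fetal pair was -1.21 for Mvd, -1.35 for Msmo1, -1.17 for Nsdhl and -1.26 for Hsd17b7, and in the adult pair 1.67 for Mvd, 2.79 for Msmo1, 1.06 for Nsdhl and 3.68 for Hsd17b7. By its next probe set Hsd17b7 was under 2-fold in the fetal pair, with 137 in ovary and 159 in testis. The adult pair had 307 in ovary and 100 in testis. The next Mvd probe set had 204 in fetal ovary and 409 in fetal testis. In the adult pair it had 125 in ovary and 55.8 in testis, the latter under the floor. Ggps1, the synthase of geranylgeranyl diphosphate, had -1.21 in the neonatal and 1.99 in the adult pair by its brightest probe set. Its other probe sets did not show this reversal. One had signals of 278 in neonatal ovary and 282 in neonatal testis, and 213 in adult ovary against 278 in adult testis. Another had 181 in neonatal ovary and 187 in neonatal testis, and 245 in adult ovary against 104 in adult testis. Of the control genes, Scap had -1.11 in the neonatal and 3.59 in the adult pair, and Insig1 had -1.06 in the fetal and 2.58 in the adult pair.

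Of the uptake and storage genes, Scarb1 had -2.18 in the fetal, -2.01 in the neonatal and 2.34 in the adult pair, and Nceh1, a hydrolase of stored cholesterol esters, had -2.08 in the neonatal and 3.45 in the adult pair. Of the steroid synthesis genes, Nr5a1, the transcription factor of steroid-making cells, had -1.76 in the fetal, -2.76 in the neonatal and 2.25 in the adult pair. Star had -4.08 in the fetal, -1.15 in the neonatal and 3.02 in the adult pair. Cyp11a1 had -6.07 in the fetal, -5.33 in the neonatal and 4.21 in the adult pair. Hsd3b1 had -3.83 in the fetal, -2.33 in the neonatal and 3.61 in the adult pair. Hsd17b1 had -2.98 in the fetal, -5.33 in the neonatal and 5.78 in the adult pair, and Fdx1, the electron carrier of Cyp11a1, had -1.81 in the fetal and 1.96 in the adult pair. Me1, which supplies NADPH for lipid synthesis, had -2.43 in the fetal, -3.24 in the neonatal and 1.33 in the adult pair. By its other probe set Me1 had 4877 in adult ovary and 3108 in adult testis, the same direction but under 2-fold. Ratios of genes at the floor on 1 array of a pair, such as Cyp11a1 in the fetal and neonatal pairs, are bounds. Over the 4 other scalings the adult ratio of Nsdhl reached -0.06, that of Ggps1 -1.51 and the neonatal ratio of Ggps1 0.59, and the other ratios given here kept their sign. The brightest probe set was picked anew under each scaling, and those of Ggps1 disagree.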

How the results depend on the processing

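Over all alternatives, 152 of 176 counts of enzymes past the call, 65 of 80 medians and 483 of 560 ratios of single enzymes stayed within the set limits of the values given. Of the 80 medians 8 changed sign and 3 became 0. All 7 enzymes stayed lower in fetal ovary than in fetal testis in every alternative, and Hmgcs1, Fdps, Lss and Dhcr7 stayed higher in fetal testis than in adult testis. Of the 4 other scalings, that to hybridization controls moved the medians against adult testis most. With it the median log2 ratio of all genes over adult testis was -0.84 in fetal ovary, -0.76 in fetal testis, -0.45 in neonatal ovary, -0.96 in neonatal testis and -0.65 in adult ovary, where the trimmed mean gave 0.30 to 0.37, because the controls had a mean signal of 441 in adult testis and of 592 to 1152 on the other arrays.

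With these controls the median log2 ratio of the 7 enzymes over adult testis was -1.28 in fetal ovary, 0.34 in fetal testis, -1.59 in neonatal ovary, -1.04 in neonatal testis and -1.31 in adult ovary, and 0.34 in neonatal ovary over neonatal testis. The number of enzymes 4-fold higher became 0 in fetal testis over adult testis and 0 in adult ovary over neonatal ovary. In each of fetal ovary, neonatal ovary, neonatal testis and adult ovary 2 were 4-fold lower than adult testis. The median of all genes was also negative there under this scaling, as given above. Shares of all genes past 4-fold are given for the main processing only, so counts under other settings have no share to be set against. In fetal testis over adult testis 1 enzyme was 4-fold higher with signals as deposited, 1 with the same median and 1 with no floor and 16 added, since Fdps lies at the limit, and 4 with the mean of all probe sets. Signals as deposited gave a median of 0.72 in adult ovary over neonatal ovary. The mean of all probe sets gave 0.53 in adult ovary over adult testis, and leaving out the _x_at and _s_at probe sets gave 1.34 there and 1.04 in neonatal testis over adult testis.

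The second brightest probe set, chosen after seeing the data, gave medians over adult testis of 2.23 in fetal testis, 0.74 in neonatal ovary, 1.42 in neonatal testis and 1.57 in adult ovary, and -0.60 in neonatal ovary over neonatal testis. It put 5 enzymes 4-fold above adult testis in fetal testis, 2 in neonatal testis and 1 in fetal ovary, with Fdps, Sqle and Dhcr7 still read by their brightest. Called at 2-fold, the enzymes higher than adult testis were 1 in fetal ovary, 4 in fetal testis, 1 in neonatal ovary, 3 in neonatal testis and 3 in adult ovary, and those lower were 3 in neonatal ovary, 1 in neonatal testis and 2 in adult ovary. At 2-fold 5 were lower in fetal ovary than in fetal testis, 1 was lower in neonatal ovary than in testis of that age, and 2 were higher in adult ovary than in neonatal ovary. Apart from the controls and the probe sets, the cause of these shifts was not tested. No paired analysis was possible because each group has 1 array and the groups share only the replicate number 1.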
